A study of Mus musculus with 6 samples.

Results

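The genes described here are 36 endothelial and angiogenesis genes, chosen by name from the 56748 genes that the count table lists. The names cover the surface and junction genes by which endothelium is recognised, the receptors and ligands of vessel growth, transcription factors of endothelial cells, and arterial, venous and lymphatic genes. All 36 were in the table and all 36 passed the filter on low counts, which left 13888 genes for testing. They were compared between 3 hearts of Pontin cTG mice and 3 of WT littermates. Pontin cTG mice carry a flag-tagged cDNA of human Pontin (the RUVBL1 protein, an AAA+ ATPase of chromatin-remodelling complexes) under the αMHC promoter, which drives it in cardiomyocytes and not in endothelium, and WT littermates carry no transgene. The line was made by pronuclear injection, is on a C57Bl/6 background, and the animals were male and 10 weeks old when the pumps were placed. All 6 mice, WT included, had received Ang-II, a hypertensive and hypertrophic peptide, by mini-osmotic pump for 14 days (dose 1.5 mg/kg BW/day), so no untreated heart was part of the comparison. Each heart was 1 RNA-seq library.

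Endothelial cells line every vessel and are the most numerous non-muscle cells of the heart, where capillaries run beside almost every cardiomyocyte. Cardiomyocytes and other stromal cells release VEGF ligands, which act on the endothelial receptor tyrosine kinases Kdr, Flt1 and Flt4 to start sprouting, while the angiopoietins act through Tek and its partner Tie1 to settle vessels again. Within a sprout, Dll4 on the leading cell signals to Notch1 on its neighbours and limits further branching. Ets-family factors such as Erg, the SoxF factors Sox17 and Sox18, and the flow-responsive Klf2 and Klf4 hold the endothelial programme in place. In RNA from a whole heart, a smaller number of cells of a type and less RNA per cell cannot be told apart, and this holds for every value that follows.

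Total counts ran from 12436822 to 13194038 in WT and from 14584102 to 16888124 in Pontin cTG libraries. Transcripts of the mitochondrial genome took 23.8% to 26.7% of the counts. Pontin cTG replicate 2 stood apart from the rest: on the first principal component, which held 48.6% of the variance between libraries, it scored 50.9 and the others -23.1 to 16.2. Results that rest on this library are therefore given with and without it. *Ruvbl1*, which encodes mouse Pontin, had normalised counts of 216, 221 and 217 in the WT libraries and of 249.9, 250.02 and 239.95 in the Pontin cTG libraries (log2 fold change 0.18, standard error 0.12). These counts were made on the mouse gene, and reads of the human cDNA were not counted separately here, so they check the transgene only in part. For normalised counts, each count was divided by the TMM-scaled size of its library and rescaled to a common size (the geometric mean).

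None of the 36 genes differed between genotypes by the threshold used here. In edgeR's quasi-likelihood test, 0 of the 36 passed a Benjamini-Hochberg adjusted p of 0.05, and 0% of the 13888 genes did. At an unadjusted p of 0.05, 0 of the 36 passed against 2.05% of all genes tested, and 0 of the 36 had groups without overlap in normalised counts, against 8.33% of all genes tested. DESeq2 gave 0 members at either threshold as well. The adjusted p was 0.999 for each member in edgeR, and the smallest unadjusted p was 0.053, for *Klf2*. For 1 gene, 3 hearts against 3 allow an exact permutation p of 0.1 at the lowest.

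The log2 fold changes, written throughout as Pontin cTG over WT, ran from -0.72 for *Vwf* to 0.48 for *Rgcc*. Their median was 0.09, with 24 members higher and 12 lower in Pontin cTG, whereas the median over all tested genes was 0.0013 (6976 higher and 6912 lower). Without Pontin cTG replicate 2 the median of the members was -0.083, with 10 higher and 26 lower. The 95% interval of the difference lay within a 2-fold change in either direction for 30 of the 36 genes and within a 1.5-fold change for 18. The interval of *Pecam1* ran from 0.80-fold to 1.30-fold and that of *Cdh5* from 0.77-fold to 1.33-fold. Such bounds were not shared by all genes that mark endothelial identity. Some had wider intervals, among them *Egfl7* from 0.73-fold to 2.31-fold and *Cldn5* from 0.99-fold to 1.89-fold. The interval of *Vwf* reached down to 0.31-fold.

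**Figure D1:**
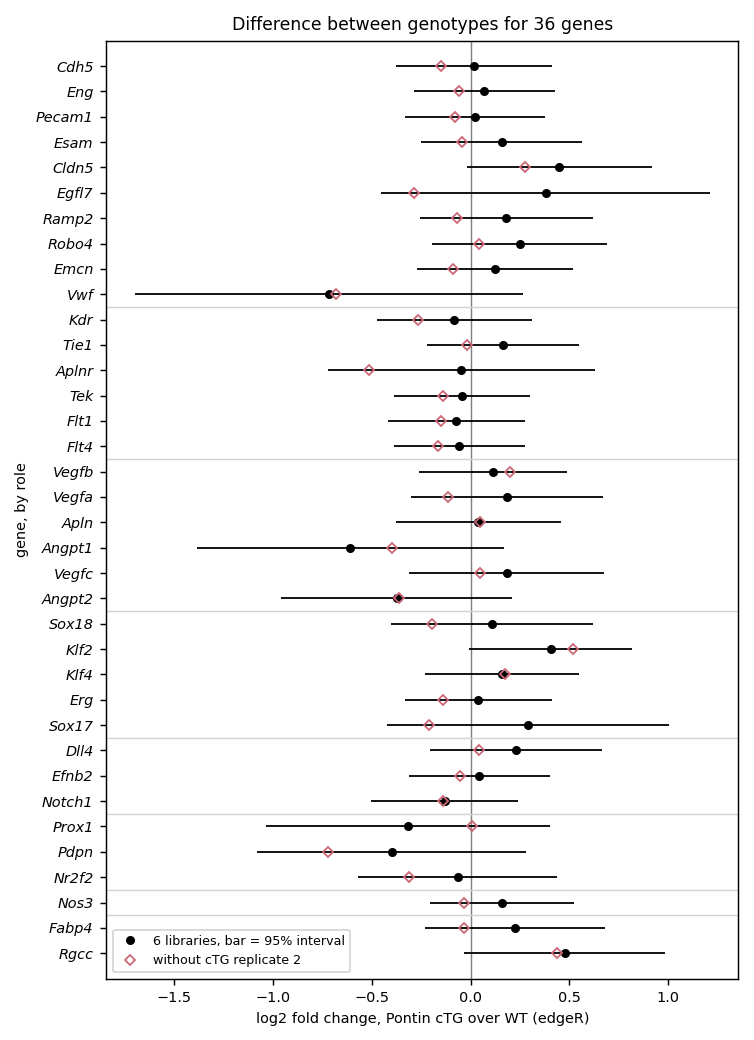
The log2 fold change of each gene (x axis, Pontin cTG over WT, edgeR) is shown for 36 genes grouped by role (y axis), as black points with 95% intervals over 6 libraries and as open diamonds without Pontin cTG replicate 2. All 36 intervals include 0, and the diamonds lie below 0 for 26 of the genes.

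To show sequence beside the values, promoters are given for *Klf2*, *Cldn5* and *Rgcc*, the members with the smallest unadjusted p, each as the 250 bases before the start of the RefSeq transcript in GRCm38.p6, 5′ to 3′ on the strand of the gene. The *Klf2* window is chr8:72318812-72319061 on the + strand, the *Cldn5* window is chr16:18776597-18776846 on the + strand and the *Rgcc* window is chr14:79301636-79301885 on the - strand. Capitals mark GGAA or its complement TTCC, the core that Ets-family factors bind, and the palindrome TAAATTTA, a core of the MEF2 type. Both strands were searched, and the motifs share no letters.
Klf2: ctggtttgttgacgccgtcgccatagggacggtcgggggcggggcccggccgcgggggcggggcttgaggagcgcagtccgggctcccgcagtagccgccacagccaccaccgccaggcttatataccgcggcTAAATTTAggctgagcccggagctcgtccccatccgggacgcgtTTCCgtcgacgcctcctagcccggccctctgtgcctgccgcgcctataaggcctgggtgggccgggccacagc
Cldn5: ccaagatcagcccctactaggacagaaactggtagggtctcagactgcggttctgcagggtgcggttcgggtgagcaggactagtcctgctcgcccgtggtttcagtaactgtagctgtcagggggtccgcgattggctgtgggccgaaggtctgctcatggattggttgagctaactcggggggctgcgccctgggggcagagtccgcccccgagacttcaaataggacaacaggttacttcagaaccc
Rgcc: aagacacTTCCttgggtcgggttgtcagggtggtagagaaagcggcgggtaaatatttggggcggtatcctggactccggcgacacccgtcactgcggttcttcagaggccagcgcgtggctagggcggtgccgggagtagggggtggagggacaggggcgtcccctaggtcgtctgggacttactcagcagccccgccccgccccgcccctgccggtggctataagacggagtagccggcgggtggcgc
The Ets core was found at 1 place in *Klf2*, at 0 places in *Cldn5* and at 1 place in *Rgcc*. Since GGAA or TTCC is present in 93.4% of the 32851 RefSeq promoter windows of this length, and in 28 of the 30 windows of the 24 members that have one (93.3%), its presence does not set these genes apart. TAAATTTA is rarer, at 0.502% of all windows. It was found in 2 of the 30 member windows, those of *Klf2* and *Erg*, and in *Klf2* it starts 117 bases before the transcript start. No other sequence of the MEF2 type was searched, and these shares were not compared by a test. Such matches describe letters only, since binding was not measured.

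Levels were compared between genes per length, as RPKM, the count divided by the annotated length of the gene and by the library total. *Vegfb*, an Flt1 ligand that heart muscle makes in large amount, had the highest median level over the 6 libraries, 139 RPKM (range 109 to 148). *Fabp4*, the fatty acid-binding protein of capillary endothelium, came next with 87.4 RPKM (range 86.8 to 152), and these ranges overlapped. *Cdh5* (VE-cadherin, the adherens junction protein of endothelium) at 55.0 RPKM (43.6 to 74.1) lay below both in every library. It overlapped in range with *Vegfa* at 47.5 RPKM (43.1 to 81.5), *Eng* at 40.3 (33.3 to 53.2) and *Pecam1* at 35.7 (29.1 to 43.8). Within each library, *Cdh5* lay above *Eng* and *Pecam1*, but not always above *Vegfa*. The lowest levels were those of *Sox17* at 2.13 RPKM, and of *Angpt2* and *Nr2f2*, both at 1.13 RPKM, whose ranges of 0.965 to 1.83 and 0.890 to 1.62 overlapped. Both genes in this last pair also overlap another annotated gene on the opposite strand.

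In the list, 10 genes mark endothelial identity, and none of the 10 passed either threshold. The median of their log2 fold changes was 0.14 with 9 of the 10 higher in Pontin cTG, and -0.074 with 2 higher once Pontin cTG replicate 2 was left out. *Cdh5* (chromosome 8, 104828257 to 104871143, GRCm39) had normalised counts of 3362, 3066 and 3500 in WT and of 3294, 4072 and 2681 in Pontin cTG, given here and below in the order of replicates 1 to 3. The highest and the lowest value both belonged to Pontin cTG, and the WT values lay between them. The means were 3309 ± 222 in WT and 3349 ± 697 in Pontin cTG (SD, n = 3 each), and the log2 fold change was 0.02 (standard error 0.18, edgeR adjusted p = 0.999). *Pecam1* (CD31, the junctional adhesion molecule used to stain endothelium) had the same order in its Pontin cTG libraries, with 3193, 3568 and 2650 normalised counts against 2824, 3282 and 3155 in WT.

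*Cldn5*, the claudin of endothelial tight junctions, had the highest log2 fold change of the identity genes. Its normalised counts were 346, 282 and 401 in WT and 485, 573 and 345 in Pontin cTG. Pontin cTG replicates 1 and 2 lay above every WT library, while replicate 3 lay within the WT range. The log2 fold change was 0.45 (95% interval -0.02 to 0.92, unadjusted p = 0.059, adjusted p = 0.999 in edgeR), and 0.27 without Pontin cTG replicate 2. In *Robo4*, a receptor that holds vessels tight, the same pair of libraries was above WT: 566, 532 and 641 normalised counts in WT and 691, 870 and 504 in Pontin cTG, with a log2 fold change of 0.25 (0.04 without replicate 2).

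*Egfl7*, a secreted protein of endothelial matrix, had the widest spread of the 36 within the Pontin cTG group. It had 788, 818 and 777 normalised counts in WT and 561, 1794 and 742 in Pontin cTG. Replicate 2 alone stood high, 3.20 times the lowest Pontin cTG library, and the other Pontin cTG libraries lay below every WT library, which agreed among themselves within 1.05-fold. Over all libraries its log2 fold change was 0.38 (standard error 0.37), and -0.28 without replicate 2. *Agpat2*, a gene on the opposite strand that overlaps *Egfl7* and holds 58.2% as many counts, had 504 to 568 normalised counts in all 6 libraries. With a kit that does not mark strand, reads from such a pair cannot be told apart where the genes overlap.

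*Vwf*, von Willebrand factor of the endothelial storage granule, was at the other end with the lowest log2 fold change of all 36. Its normalised counts were 646, 2057 and 623 in WT and 768, 644 and 614 in Pontin cTG. A single library, WT replicate 2, was 3.30 times the lowest WT library, and the other 5 spanned 614 to 768. The log2 fold change of -0.72 (standard error 0.43, unadjusted p = 0.13) became 0.09 without that library. The remaining identity genes had log2 fold changes of 0.07 for *Eng* (endoglin, a TGF-β co-receptor), 0.12 for *Emcn* (endomucin of capillaries and veins), 0.16 for *Esam* (a junctional adhesion molecule) and 0.18 for *Ramp2* (partner of the adrenomedullin receptor). *Eng* was the tightest of these in WT, where its libraries agreed within 1.02-fold at 2269, 2320 and 2289 normalised counts, against 2425, 2820 and 1973 in Pontin cTG.

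**Figure D2:**
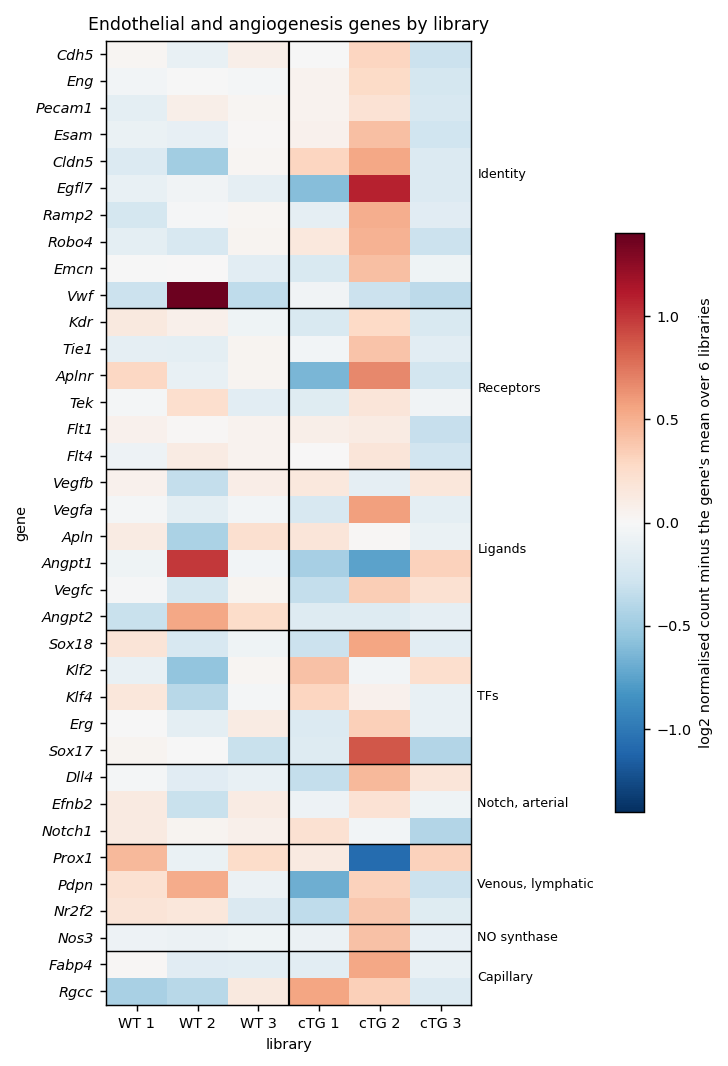
Colour gives the log2 normalised count of each gene (rows, grouped by role) in each library (columns) minus the gene's mean over the 6 libraries, with red above and blue below that mean. The column of Pontin cTG replicate 2 is red for most rows and holds the highest value of 24 of the 36 genes.

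A single library held most of the highest values of these genes. Pontin cTG replicate 2 had the highest value for 24 of the 36 members (66.7%), against 30.2% of all tested genes. It was also the lowest for 2 members, whereas 30.7% of all genes were lowest there. The lowest values of the members were mainly in Pontin cTG replicates 1 and 3, with 12 members each. The median deviation of the members from their means on the log2 scale was 0.33 in Pontin cTG replicate 2 and between -0.15 and 0.026 in the other 5 libraries. For the identity genes alone it was 0.42 in replicate 2 and -0.23 in replicate 3 of the same genotype. These counts describe libraries that had been seen to differ, and they carry no test.

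The summed level of the 10 identity genes followed the same course. In CPM, counts scaled to the library total, it was 867, 1019 and 930 in WT and 931, 1296 and 766 in Pontin cTG, so that the latter group held both the highest and the lowest sum (two-sided exact permutation test, p = 0.8, where 0.1 is the smallest p possible). Other marker lists moved as well, and their part in the values of the members was not tested. The 7 fibroblast markers summed to 1929 CPM in Pontin cTG replicate 2 and 1820 in WT replicate 2, against 929 to 1150 in the other 4 libraries. Macrophage markers (6 genes) were highest in WT replicate 2, at 538 against 250 to 396 elsewhere. Of these 6 genes, 5 had a lower mean in Pontin cTG (median log2 fold change -0.42), with *Mrc1* at an unadjusted p of 0.048 in edgeR (0.27 without WT replicate 2), *Csf1r* without overlap between the groups and none past an adjusted p of 0.05. Smooth muscle and pericyte markers (8 genes, 7 tested) ran from 1415 to 1501 in WT and from 1285 to 1353 in Pontin cTG, without overlap, though none of the 7 passed an unadjusted p of 0.05. Of the 7, only 1 had groups without overlap itself (8.33% of all tested genes did). That gene, *Abcc9*, had 5107, 5499 and 4892 normalised counts in WT and 4772, 2789 and 4116 in Pontin cTG. Without *Abcc9* the sums of the groups overlapped, so their separation rested on that gene and does not describe the list as a whole. *Tagln* in that list had only 6 to 14 counts per library. The 7 cardiomyocyte markers summed to 42126 to 53235, the 5 erythroid genes to 799 to 1565, the 5 adipocyte genes to 0.065 to 1.03 and the 4 mesothelial genes to 3.70 to 7.13 CPM, each with overlapping groups. The 2 endocardial genes went the other way from the identity genes in Pontin cTG replicate 2. They summed to 10.9 CPM there, the lowest value, against 21.9 to 38.1 in the other libraries. *Adipoq*, *Plin1* and *Lep*, which define adipocytes, had between 0 and 3 counts in a library, and *Krt19* of the mesothelium had 0 counts in all 6.

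**Figure D3:**
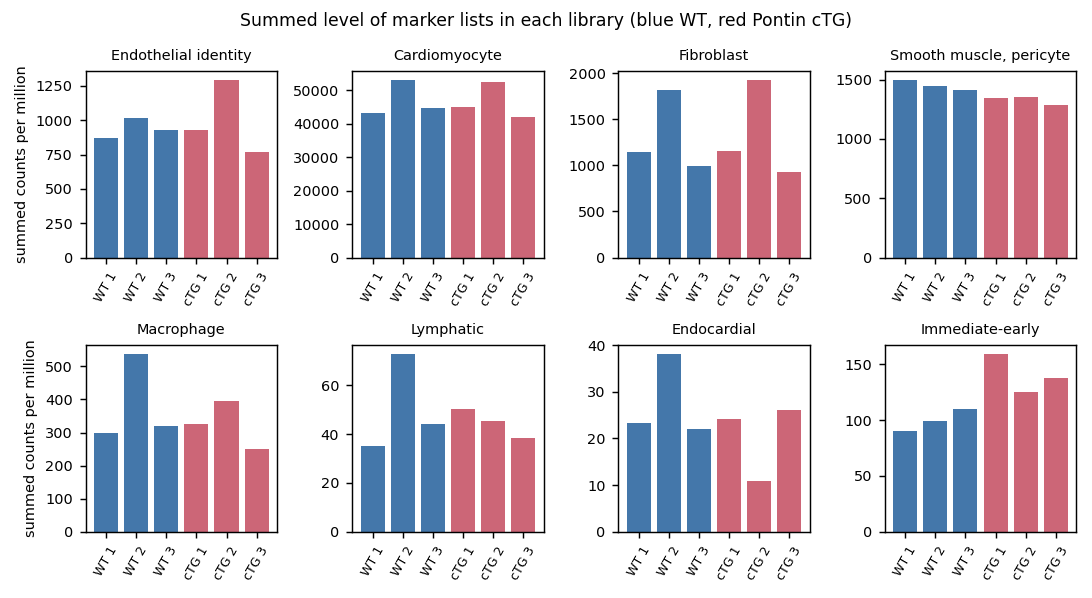
Bars give the summed CPM (y axis, from 0) of 8 marker lists in each of the 6 libraries (x axis), blue for WT and red for Pontin cTG. Endothelial identity is highest in Pontin cTG replicate 2 at 1296, fibroblast markers are high in both second replicates, and the immediate-early genes are higher in all Pontin cTG libraries.

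Transcript length also moved with the libraries. Across all tested genes, the Spearman correlation of a gene's deviation with its length was -0.20 in Pontin cTG replicate 2 and -0.16 in replicate 3, and it was 0.082 to 0.18 in the other 4. Across the 36 members it was -0.27 and -0.26 in these libraries and 0.59 in WT replicate 2, in which *Vwf*, the member with the longest annotated transcript length (16064 bases), was highest. These are correlations across genes within a library, and genes are not independent replicates. The members were not unusual in length, with a median of 4168 bases against 4318 over all genes tested.

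Of the 6 receptors, 5 had a lower and 1 a higher mean in Pontin cTG, with log2 fold changes between -0.08 and 0.16, a median of -0.05 and none past either threshold. When Pontin cTG replicate 2 was left out, all 6 were lower and the median was -0.15. *Kdr* (VEGFR2, the main signalling receptor of Vegfa) had the highest level per length of the 6, at 27.2 RPKM. It had 3794, 3618 and 3316 normalised counts in WT and 2968, 4194 and 2973 in Pontin cTG. Replicate 2 lay above all WT libraries and the remaining Pontin cTG libraries below all of them, and the log2 fold change was -0.08 (95% interval -0.47 to 0.31), or -0.27 without replicate 2 (unadjusted p = 0.030 in edgeR with 2 Pontin cTG libraries, where 4.91% of all tested genes passed an unadjusted p of 0.05). *Aplnr*, the apelin receptor, had the same arrangement: 1077, 821 and 909 normalised counts in WT, and 568, 1408 and 740 in Pontin cTG. Its log2 fold change was -0.05 (standard error 0.30) with all libraries and -0.52 without replicate 2 (unadjusted p = 0.0063).

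The other 4 receptors had overlapping groups as well. *Flt4* (VEGFR3, the receptor of Vegfc on lymphatic endothelium) had the lowest level per length of the receptors at 2.99 RPKM, with 329, 374 and 357 normalised counts in WT and 346, 387 and 286 in Pontin cTG. Pontin cTG replicate 2 lay above and replicate 3 below every WT library, and the log2 fold change was -0.06 (95% interval -0.39 to 0.27). *Flt1* (VEGFR1, which also acts as a decoy for VEGF) had a log2 fold change of -0.07, *Tek* (the angiopoietin receptor) of -0.04 and *Tie1* (its partner receptor) of 0.16. *Tie1* was the only receptor with a higher mean in Pontin cTG, and its log2 fold change was -0.02 without replicate 2.

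**Figure D4:**
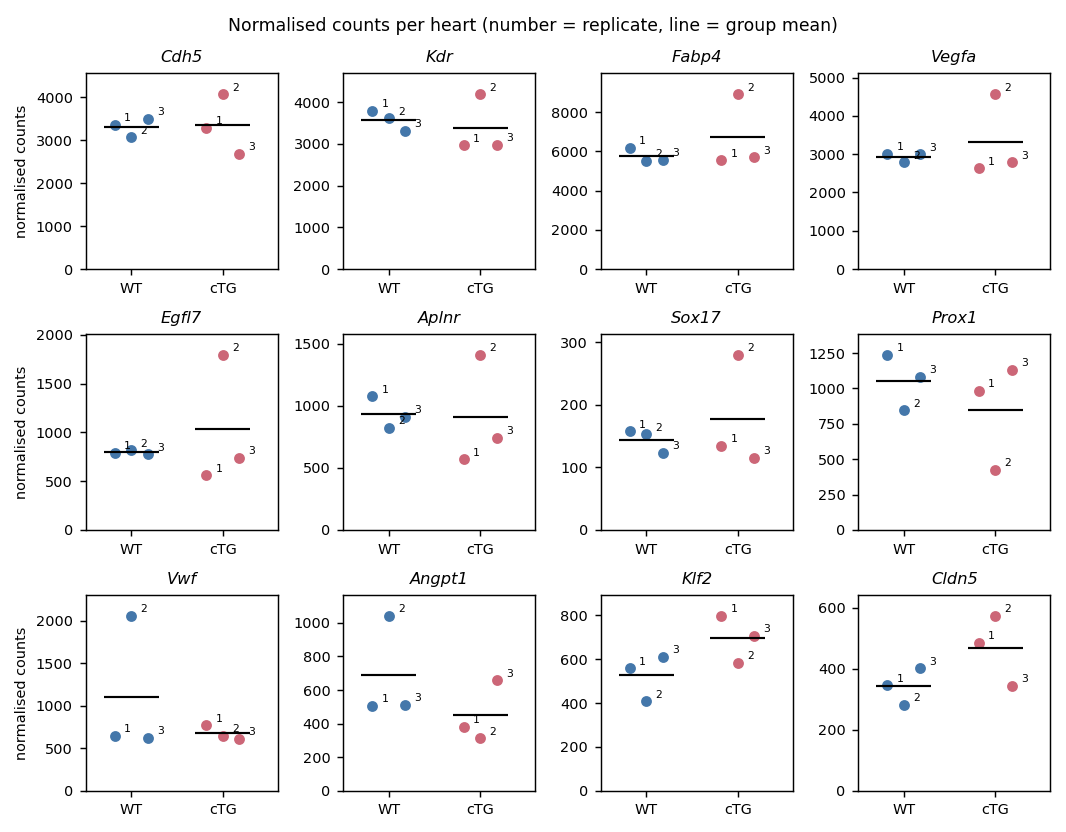
Each panel gives the normalised counts (y axis, from 0) of 1 gene in every heart, with WT in blue, Pontin cTG in red, the replicate number beside each point and a line at the group mean. Pontin cTG replicate 2 stands apart upwards for *Egfl7*, *Aplnr*, *Sox17* and *Vegfa* and downwards for *Prox1*, whereas WT replicate 2 stands apart for *Vwf* and *Angpt1*.

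The 6 ligands differed in sign, with 4 higher, 2 lower and a median of 0.08 (-0.03 when Pontin cTG replicate 2 was left out), and none passed either threshold. *Vegfb* had 3179, 2436 and 3268 normalised counts in WT and 3380, 2808 and 3416 in Pontin cTG. The second replicate was the lowest of each genotype, the groups overlapped, and the log2 fold change was 0.11 (95% interval -0.26 to 0.49). *Vegfa*, the principal ligand of sprouting, is given in full here although it was chosen after its values had been seen. Its normalised counts were 3009, 2786 and 3001 in WT and 2632, 4567 and 2788 in Pontin cTG. Only replicate 2 of Pontin cTG exceeded WT, and the log2 fold change was 0.18 (standard error 0.22) with this library and -0.11 without it.

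*Angpt1*, the ligand from perivascular and muscle cells that activates Tek, had the lowest log2 fold change among the ligands. Its normalised counts were 505, 1041 and 513 in WT and 381, 312 and 658 in Pontin cTG. WT replicate 2 was 2.06 times the lowest WT library and Pontin cTG replicate 3 was 2.11 times the lowest of its group. The log2 fold change was -0.61 (95% interval -1.38 to 0.17, unadjusted p = 0.11), or -0.18 without WT replicate 2. *Angpt2*, which opposes Angpt1 at sprouting vessels, had 52, 94 and 77 normalised counts in WT and 57, 57 and 59 in Pontin cTG. Its Pontin cTG libraries agreed within 1.04-fold and lay inside the WT range, and the log2 fold change was -0.37 (standard error 0.26). *Angpt2* overlaps *Mcph1*, a gene on the opposite strand that held 114% as many counts, so its level is uncertain. *Vegfc* (the lymphatic VEGF) and *Apln* (apelin, the ligand of Aplnr) had log2 fold changes of 0.18 and 0.04.

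All 5 transcription factors had a higher mean in Pontin cTG, with a median log2 fold change of 0.16 and none past either threshold. Without Pontin cTG replicate 2 the median was -0.14 and 2 of the 5 were higher, *Klf2* and *Klf4*. *Klf2*, the Krüppel-like factor that shear stress induces in endothelium, had 558, 408 and 611 normalised counts in WT and 798, 585 and 707 in Pontin cTG, and was given in full after its values had been seen. Pontin cTG replicates 1 and 3 lay above all WT libraries, and replicate 2 lay between WT replicates 1 and 3. Its log2 fold change of 0.40 (95% interval -0.01 to 0.82) had in edgeR an unadjusted p of 0.053 (adjusted p = 0.999), and it was 0.52 when Pontin cTG replicate 2 was left out and 0.25 when WT replicate 2 was.

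*Klf2* is also an early-response gene, and the list of immediate-early genes differed in the same direction. These 7 genes, which answer tissue handling as well as other stimuli, summed to 90.1, 98.7 and 110 CPM in WT and 159, 125 and 138 in Pontin cTG, without overlap. Of the 6 tested, 5 were higher in Pontin cTG at an unadjusted p under 0.05 (2.05% of all tested genes passed) and none at an adjusted p under 0.05 in edgeR with all 6 libraries. The remaining gene was lower, at a log2 fold change of -0.43. Without Pontin cTG replicate 2, *Egr1* alone of these passed, at an adjusted p of 0.013, and it also passed under limma-voom with sample quality weights (adjusted p = 0.021) and with both second replicates left out (adjusted p = 0.0077). The first and last of these settings leave out the same Pontin cTG library, so they are not separate checks. *Egr1*, the most abundant after *Dusp1*, had 218 to 229 normalised counts in WT and 464, 259 and 478 in Pontin cTG, with replicates 1 and 3 again above replicate 2. Whether the level of *Klf2* moves with tissue handling was not tested.

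The other factors had less to set them apart. *Sox18*, which had the highest level per length of the 5 at 26.2 RPKM, had 749, 563 and 630 normalised counts in WT and 536, 964 and 595 in Pontin cTG. *Sox17*, a factor of arterial endothelium with the lowest level per length of the 5, had 157, 153 and 123 in WT and 135, 279 and 115 in Pontin cTG. In both genes replicate 2 alone was above WT, and the log2 fold changes of 0.11 and 0.29 were -0.19 and -0.21 without it. For *Erg* the log2 fold change was 0.04 (standard error 0.16), and for *Klf4*, the close relative of Klf2, it was 0.16 (standard error 0.17).

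Among the Notch and arterial genes, 2 were higher and 1 lower in Pontin cTG, with a median log2 fold change of 0.04 and none past either threshold. Without Pontin cTG replicate 2 the median was -0.05, with 1 higher. *Dll4*, the Notch ligand of the sprout tip, had 324, 296 and 306 normalised counts in WT and 262, 450 and 372 in Pontin cTG. Its WT libraries agreed within 1.09-fold and lay between the lowest Pontin cTG library and the other two, and the log2 fold change was 0.23 (standard error 0.19), or 0.04 without replicate 2. *Notch1* had 625, 588 and 604 in WT and 668, 559 and 433 in Pontin cTG, again with a tight WT group within a wider Pontin cTG group. Its log2 fold change was -0.13 (95% interval -0.50 to 0.24). *Efnb2* (ephrin-B2, the arterial ephrin) had a log2 fold change of 0.04.

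The 3 venous and lymphatic genes each had a lower mean in Pontin cTG, with a median log2 fold change of -0.31 and none past either threshold. Without Pontin cTG replicate 2 the median was also -0.31, with 1 higher. *Prox1*, the factor that specifies lymphatic endothelium and is also made by cardiomyocytes, had 1236, 846 and 1080 normalised counts in WT and 985, 426 and 1131 in Pontin cTG. Replicate 2 of Pontin cTG was the lowest library, 2.65 times below the highest of its group, and the others overlapped with WT. For *Prox1* the log2 fold change of -0.31 (standard error 0.32) became 0.01 without it. *Pdpn* (podoplanin, a surface protein of lymphatic endothelium and fibroblasts) was at a log2 fold change of -0.40 (standard error 0.30). *Nr2f2* (COUP-TFII, the venous factor) had 159, 156 and 122 normalised counts in WT and 109, 182 and 125 in Pontin cTG, with a log2 fold change of -0.07 (95% interval -0.57 to 0.44). The lymphatic genes outside the 36 summed to 72.8 CPM in WT replicate 2 against 35.0 to 50.3 in the other libraries, and *Mmrn1* among them had 0 counts in all 6.

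*Nos3*, the endothelial nitric oxide synthase, was the steadiest of the 36 in WT, at 402, 398 and 404 normalised counts. Its values were 396, 558 and 389 in Pontin cTG, so that the libraries other than replicate 2 lay just below WT. Its log2 fold change was 0.16 (95% interval -0.20 to 0.52), or -0.03 without replicate 2. *Fabp4* had 6198, 5510 and 5561 normalised counts in WT and 5549, 8922 and 5706 in Pontin cTG. Replicate 2 was again the only Pontin cTG library above WT, and the other Pontin cTG libraries lay within the WT range. Its log2 fold change was 0.22 (standard error 0.20), or -0.03 without replicate 2, and the adipocyte genes given above were at or near 0 in the same libraries.

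*Rgcc*, a cell cycle regulator present in capillary endothelium, had the largest log2 fold change of the 36. It had 269, 279 and 405 normalised counts in WT and 540, 464 and 321 in Pontin cTG. Pontin cTG replicates 1 and 2 lay above all WT libraries, and replicate 3 lay below WT replicate 3. The log2 fold change was 0.48 (95% interval -0.03 to 0.98, unadjusted p = 0.064, adjusted p = 0.999 in edgeR). Unlike most members it did not depend on Pontin cTG replicate 2, without which it was 0.44.

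Other genes of the same pathways were taken from a list of 39, of which 38 were tested. None passed an adjusted p of 0.05 in edgeR. At an unadjusted p of 0.05, 1 passed (2.05% of all tested genes did), and 2 had groups that did not overlap (8.33% of all tested genes), so neither count sets the list apart. The median log2 fold change of the list was -0.02, with 18 genes higher and 20 lower. Without Pontin cTG replicate 2 the median was -0.11, with 12 genes higher. *Vegfd*, a second ligand of Flt4, had 46, 74 and 39 normalised counts in WT and 28, 31 and 33 in Pontin cTG. Every Pontin cTG library lay below every WT library, and the log2 fold change of -0.79 (95% interval -1.49 to -0.09) had in edgeR an unadjusted p of 0.031 (adjusted p = 0.999) (exact permutation test, two-sided p = 0.1). Without WT replicate 2, the highest library, the log2 fold change of *Vegfd* was -0.47 (unadjusted p = 0.16 in edgeR). Its raw counts were low, at 29 to 66 per library. *Nrp1* (neuropilin-1, a co-receptor of Kdr) was the other gene without overlap, at 2235, 2319 and 2180 in WT and 2099, 1893 and 1718 in Pontin cTG, at a log2 fold change of -0.24 (standard error 0.13, unadjusted p = 0.11).

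In the list, 11 genes were grouped under the VEGF and angiopoietin system, some of them only related to it, such as *Calcrl*. All 11 had a lower mean in Pontin cTG, at a median log2 fold change of -0.19 (-0.31 if Pontin cTG replicate 2 is left out). They included *Hif1a* at -0.20 and *Epas1* at -0.06 (the hypoxia-inducible factors), *Ptprb* at -0.24 (VE-PTP, the phosphatase of Tek) and *Calcrl* at -0.17 (the receptor that pairs with Ramp2), and 1 of the 11, *Vegfd*, passed an unadjusted p of 0.05. Without WT replicate 2 the direction was not shared by all 11. *Pgf* was then at 0.19, *Angptl4* at 0.21 and *Plvap* at 0.18, and the rest stayed lower. The 8 Notch and ephrin genes had a median of 0.10 with 6 higher, the 12 endothelial factors and surface genes a median of 0.12 with 10 higher, and none in either group passed an unadjusted p of 0.05. Without Pontin cTG replicate 2 the medians were -0.06 with 3 higher and 0.02 with 6 higher. Of the 3 lymphatic genes tested, all were lower, between -0.28 and -0.16. With WT replicate 2 left out the signs turned, to 0.013 for *Lyve1*, 0.28 for *Ccl21a* and 0.15 for *Reln*. The 4 inhibitors of angiogenesis had 2 higher and 2 lower. *Thbs1* (thrombospondin-1) among them had the largest log2 fold change of the list, 1.05 with a standard error of 0.80, and 1 library decided it: 454, 626 and 520 normalised counts in WT and 2694, 435 and 197 in Pontin cTG.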

How the data were processed

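RNA-seq was made from 6 hearts with an unstranded kit (TruSeq RNA v2). The values are the read counts per gene that the authors deposited, whole numbers without normalisation, in 1 table whose 6 columns were matched to samples by name (0 unmatched, 0 rows without a gene name). On how the counts were made, the sources differ: the paper's methods name Trimmomatic, STAR, mm10 and Gencode M25, and the submitters' processing notes name fastp, HISAT2, featureCounts and GRCm39. The table's gene coordinates are printed as GRCm39, after the notes. The methods state that an outlier found by PCA was excluded, without naming it, and elsewhere that no data were excluded, and all 6 libraries were used here. Promoters are RefSeq sequences of GRCm38.p6, found for 24 of the 36 genes, and no coordinates were converted.

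Counts were filtered with filterByExpr (minimum count 10), scaled by TMM and compared with edgeR 4.0.16 (R 4.3.3, glmQLFit and glmQLFTest, a single genotype term), with Benjamini-Hochberg adjustment over 13888 genes. The standard error is the log2 fold change divided by the square root of F. The script was tested on simulated data. Library depth was 12436822 to 16888124 counts. Single sums were compared with a two-sided exact permutation test. No libraries were repeats, since the smallest chi-square per gene between libraries was 1.70. The replicate numbers were checked for pairing (correlations of same-numbered deviations 0.064, 0.43 and 0.18) and treated as unpaired.

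The members and the lists were chosen with earlier results of these data known. Values of every library are given for the members with the 2 largest and 2 smallest log2 fold changes, for the highest and lowest level per length in each role, for those whose sign turned by over 0.2 when a library was left out, and, outside the 36, for genes of the pathway list at an unadjusted p of 0.05 or without overlap, for the ends of that list and for *Ruvbl1*. *Pecam1*, *Robo4*, *Eng*, *Klf2*, *Vegfa*, *Egr1*, *Mrc1*, *Csf1r*, *Hif1a*, *Epas1*, *Ptprb* and *Calcrl* were added after their values had been seen. So were *Abcc9*, *Pgf*, *Angptl4*, *Plvap*, *Lyve1*, *Ccl21a* and *Reln*. Alternatives were DESeq2 1.42.0, edgeR with its size factors or with library size alone, no filter on counts, at least 10 counts in every library, no mitochondrial genes, limma-voom (limma 3.58.1) with sample quality weights, the replicate block, scaling by the identity genes, and each library left out. Leaving out both second replicates was chosen after seeing the data.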

Additional observations from a re-analysis of the deposited data

How the results depend on the processing

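In every alternative, 0 of the 36 members passed an adjusted p of 0.05, with 0.844 as the smallest adjusted p of a member. The count of members at an unadjusted p under 0.05, 0 in edgeR, was 0 under DESeq2, under its size factors, without mitochondrial genes and under the identity scaling. It was 1, *Klf2* each time, with the replicate block (3.59% of all genes tested passed in that setting), with library size alone (2.20%) and with a minimum of 10 counts in every library (2.20%). It was 3 without a filter (*Klf2*, *Cldn5* and *Rgcc*, 1.86% of all genes), 5 under limma-voom with quality weights (*Kdr*, *Aplnr*, *Klf2*, *Rgcc* and *Pdpn*, 5.83%) and 4 with both second replicates left out (*Kdr*, *Aplnr*, *Sox18* and *Klf2*, 4.15%). With a library left out in turn it ran from 0 (WT replicate 2) to 4. Those 4 were *Vwf*, *Klf2*, *Cldn5* and *Rgcc* without WT replicate 3 (1.68% of all genes), *Kdr*, *Aplnr*, *Klf2* and *Pdpn* without Pontin cTG replicate 2 (4.91%), and *Robo4*, *Angpt1*, *Cldn5* and *Rgcc* without Pontin cTG replicate 3 (2.87%). Genes of any kind past an adjusted p of 0.05, 0 in edgeR, numbered 1 in DESeq2, 3 without a filter, 3 under limma-voom, 6 with both second replicates left out and 0 to 3 with 1 library left out (3 without Pontin cTG replicate 2). By library size alone, 1 member (*Klf2*) had groups that did not overlap. The median of the members was lowest, -0.083, without Pontin cTG replicate 2 and highest, 0.14, when Pontin cTG replicate 3 was left out. It was -0.071 under limma-voom (12 higher, 24 lower) and -0.064 with both second replicates left out (8 higher, 28 lower). The identity scaling gave 0.032 (21 higher, 15 lower) and library size alone 0.12, where the median over all genes also moved, to 0.031. By the check in the methods, the second replicates correlated best with each other (0.43). The libraries numbered 1 and 3 did not match in this way (0.064 and 0.18), and the numbers were not taken as pairs. The replicate block left 0 genes at an adjusted p under 0.05, gave 499 against 285 genes at an unadjusted p under 0.05 and a median of 0.066 for the members. The causes of these shifts were not tested.

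Signs of log2 fold changes turned as follows. Under the identity scaling the values were *Pecam1* -0.011, *Cdh5* -0.036 and *Erg* -0.0067. With both second replicates left out the values were *Pecam1* -0.031, *Cdh5* -0.20, *Tie1* -0.051, *Eng* -0.0498, *Emcn* -0.057, *Vwf* 0.12, *Fabp4* -0.061, *Apln* -0.13, *Esam* -0.066, *Egfl7* -0.26, *Ramp2* -0.036, *Robo4* -0.013, *Erg* -0.20, *Sox17* -0.17, *Sox18* -0.28, *Nos3* -0.035, *Vegfa* -0.15, *Vegfc* -0.033, *Angpt1* 0.034 and *Efnb2* -0.18. Under limma-voom the values were *Cdh5* -0.11, *Emcn* -0.074, *Fabp4* -0.037, *Apln* -0.012, *Egfl7* -0.25, *Erg* -0.14, *Sox17* -0.12, *Sox18* -0.26, *Vegfa* -0.10, *Vegfc* -0.067, *Dll4* -0.047 and *Efnb2* -0.12. With the replicate block the value was *Cdh5* -0.0014. With library size alone the value was *Aplnr* 0.011. With each library left out in turn, the sign held for 10 members (*Angpt1*, *Angpt2*, *Cldn5*, *Dll4*, *Klf2*, *Klf4*, *Pdpn*, *Rgcc*, *Robo4* and *Vegfc*) and turned for 26, with these ranges: *Pecam1* from -0.079 to 0.13, *Cdh5* from -0.15 to 0.15, *Kdr* from -0.27 to 0.013, *Flt1* from -0.15 to 0.057, *Flt4* from -0.16 to 0.054, *Tek* from -0.14 to 0.071, *Tie1* from -0.0197 to 0.27, *Eng* from -0.0598 to 0.19, *Emcn* from -0.087 to 0.26, *Vwf* from -0.99 to 0.089, *Fabp4* from -0.032 to 0.36, *Apln* from -0.14 to 0.18, *Aplnr* from -0.52 to 0.21, *Esam* from -0.041 to 0.31, *Egfl7* from -0.28 to 0.69, *Ramp2* from -0.068 to 0.30, *Erg* from -0.14 to 0.15, *Sox17* from -0.21 to 0.52, *Sox18* from -0.19 to 0.28, *Nos3* from -0.031 to 0.25, *Vegfa* from -0.11 to 0.34, *Vegfb* from -0.011 to 0.20, *Prox1* from -0.58 to 0.0068, *Notch1* from -0.28 to 0.019, *Efnb2* from -0.085 to 0.12 and *Nr2f2* from -0.31 to 0.088. With 3 hearts a group and a biological coefficient of variation of 0.197, 18 of the 36 intervals reach past a 1.5-fold change, so differences of that size are not excluded for these genes.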
